A study of Mus musculus with 2 samples.

Results

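The messages described here belong to 37 genes that make, sense, take up, move, export and store cholesterol, the raw material of every steroid the ovary secretes. They were chosen by name, as all probe sets whose platform annotation names exactly 1 gene and whose symbol stands in the list. Of the 37, 36 had such a probe set, with 85 probe sets in all, against 18193 named genes on the whole array. Soat1, the enzyme that esterifies cholesterol for storage, is not analysed here. Ovaries came from wild type CD-1 mice, 24 to 28 days old, given 5 IU of pregnant mare serum gonadotropin (PMSG), which grows preovulatory follicles. After 48 h they received 5 IU of human chorionic gonadotropin (hCG), which acts as luteinizing hormone does and starts ovulation. From 2 h after hCG the mice differed by treatment. The vehicle sample came from mice given oil, and the ulipristal sample from mice given ulipristal acetate (also written CDB in the labels), a ligand that modulates the progesterone receptor. Ovaries of both groups were collected at 11 h, with the reference point not stated, and neither the drug dose nor the number of mice per sample is given in the labels.

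Each treatment was measured on 1 Affymetrix mouse array. No array was repeated, so there is no test, no p-value and no standard deviation over samples. The comparison asks how the cholesterol messages of an ovary preparing to ovulate stood when the drug was given. Signals are in arbitrary units and were scaled to a trimmed mean of 150.001 on both arrays. Every difference is ulipristal against vehicle for the same probe set, and levels of different probe sets are not compared. A probe set counted as measured where its mean log2 signal reached the median of all probe sets, a signal of 30.8, which 77 of the 85 passed. A gene was read from its brightest probe set, and all 36 genes with a probe set were measured, among 11364 measured genes. All 8 granulosa and all 7 oocyte markers listed were measured, as were the 5 theca markers that had a probe set. All 10 macrophage and all 7 endothelium markers with a probe set were measured too, so being measured does not check the ovarian labels. Poly-A spikes and 18S ribosomal RNA were 1.49-fold and 2.41-fold brighter on the vehicle array, and their part in the results was not tested. Oviduct markers summed to 3854 with vehicle and 6153 with ulipristal, mostly from Ovgp1. All 6 measured oviduct markers were above 0, with a median log2 ratio of 1.29. Of these, 5 were at least 2-fold higher, such as the dim Foxj1 (19.1 and 75.1, 3.93-fold). Among all measured genes 60.0% were above 0 and 3.34% at least 2-fold higher. The other listed marker with a probe set, Tekt1, was below the measured level (28.6 and 31.3). The part of oviduct in the results was not tested either.

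Steroid-making cells of the ovary obtain cholesterol by synthesis from acetyl-CoA and by uptake from lipoproteins, and hold a reserve as esters in lipid droplets. When sterol in the endoplasmic reticulum runs low, Scap escorts the SREBP transcription factors to the Golgi, where they are cleaved, enter the nucleus and switch on synthesis and uptake genes. When sterol is plentiful, Insig proteins hold the Scap-SREBP complex back, and oxysterols activate the nuclear receptor LXR, which switches on export genes.

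Those controls act through short promoter elements, and 5 promoters are shown as the 250 bases before the start of the gene (RefSeq, GRCm38.p6, 5′ to 3′ on the strand of the gene). Hsd17b7, Cyp51 and Insig1 are shown because they had the lowest ratios described below, and Abca1 because it holds the LXR letters. Hmgcs1 is shown as the only synthesis enzyme with the SREBP letters, among those that have a promoter entry. Capitals mark matches on either strand to TCACNCCAC (a sterol regulatory element of the SREBPs), to CCAAT (the site of NF-Y, a common partner of the SREBPs) or to the direct repeat bound by LXR, known as DR4.
Hmgcs1 (chr13:119690101-119690350, plus strand): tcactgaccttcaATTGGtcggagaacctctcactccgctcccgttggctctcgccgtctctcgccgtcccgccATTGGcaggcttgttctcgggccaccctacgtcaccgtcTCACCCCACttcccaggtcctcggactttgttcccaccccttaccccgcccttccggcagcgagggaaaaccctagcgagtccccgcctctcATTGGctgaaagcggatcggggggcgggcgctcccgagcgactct
Hsd17b7 (chr1:169969206-169969455, minus strand): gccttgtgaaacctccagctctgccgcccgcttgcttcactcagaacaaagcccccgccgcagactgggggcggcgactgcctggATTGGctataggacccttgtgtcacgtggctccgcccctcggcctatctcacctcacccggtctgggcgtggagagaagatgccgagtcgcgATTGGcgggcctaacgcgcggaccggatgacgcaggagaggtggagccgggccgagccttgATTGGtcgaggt
Cyp51 (chr5:4104698-4104947, minus strand): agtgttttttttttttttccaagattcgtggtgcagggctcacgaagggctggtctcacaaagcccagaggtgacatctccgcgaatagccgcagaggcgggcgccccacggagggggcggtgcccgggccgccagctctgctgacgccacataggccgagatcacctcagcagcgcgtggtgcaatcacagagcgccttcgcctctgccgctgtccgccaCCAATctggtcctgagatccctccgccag
Insig1 (chr5:28071162-28071411, plus strand): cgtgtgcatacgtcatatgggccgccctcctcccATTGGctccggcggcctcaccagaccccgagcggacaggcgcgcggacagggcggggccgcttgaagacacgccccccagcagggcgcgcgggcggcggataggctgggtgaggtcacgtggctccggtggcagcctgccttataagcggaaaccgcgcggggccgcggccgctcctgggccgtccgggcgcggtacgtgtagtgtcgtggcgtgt
Abca1 (chr4:53159896-53160145, minus strand): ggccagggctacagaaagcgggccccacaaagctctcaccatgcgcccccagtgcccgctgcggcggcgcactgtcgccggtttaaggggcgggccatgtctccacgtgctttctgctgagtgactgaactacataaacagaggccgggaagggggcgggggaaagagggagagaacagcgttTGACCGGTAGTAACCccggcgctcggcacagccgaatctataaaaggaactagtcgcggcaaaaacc
Hmgcs1 holds 1 SREBP match 137 bases before the start and 3 CCAAT matches, 1 of them 45 bases before it. Hsd17b7 holds 3 CCAAT matches, Cyp51 and Insig1 hold 1 each, and Abca1 holds 1 LXR match that begins 67 bases before the start. Capitals of different motifs do not overlap in these windows.

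Promoter entries were found for 28 of the 37 genes, 40 entries in all because some genes have several starts, in a window that adds 50 bases after the start. CCAAT was present in 24 of these 40 (60.0%) and in 37.4% of the 32851 promoters of the RefSeq table. The SREBP letters were present in 2 of 40, Hmgcs1 and Stard3, and in 1.24% of all promoters. The LXR letters were present in Abca1 and in 1 start of Srebf1, and in 0.718% of all promoters. CAAGGTCA, the site of the steroidogenic nuclear receptors SF1 and LRH1, was in 1 start of Dhcr7 and in 1.56% of all promoters. The full palindrome bound by the progesterone receptor was in 0 of 40 and in 0.475% of all. A match is a description of letters, not of binding. Only 1 fixed pattern was searched for each site, so a promoter without a match may still hold a variant of that site.

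On the ulipristal array, no member was at least 2-fold higher or lower. The same limit was passed upwards by 3.34% of all measured genes and downwards by 1.56%. At 1.5-fold, 3 of 36 members were lower, namely Hsd17b7, Cyp51 and Insig1, and 2 were higher, namely Abcg1 and Lipe. The lower share is 8.33% beside 4.58% of all measured genes, and the higher share is 5.56% beside 12.3%. The median log2 ratio was -0.08 over the members, with 21 below 0 and 15 above, and 0.09 over all measured genes, of which 40.0% were below 0. Ratios across the array drifted with signal, from a median of 0.28 in the dimmest decile of measured genes to -0.12 in the brightest decile, and 17 of the 36 members stood in that brightest decile. Set against the median of their own decile, 19 members were below and 17 above. After quantile normalization the 1.5-fold counts were 1 lower (Hsd17b7) and 1 higher (Abcg1), beside 5.46% and 9.41% of all measured genes. After lowess centring they were again 1 and 1, beside 5.66% and 9.16%. The shares of all measured genes past 2-fold were then 1.75% lower and 2.35% higher after quantile normalization, and 1.79% and 2.30% after lowess centring.

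**Figure D1:**
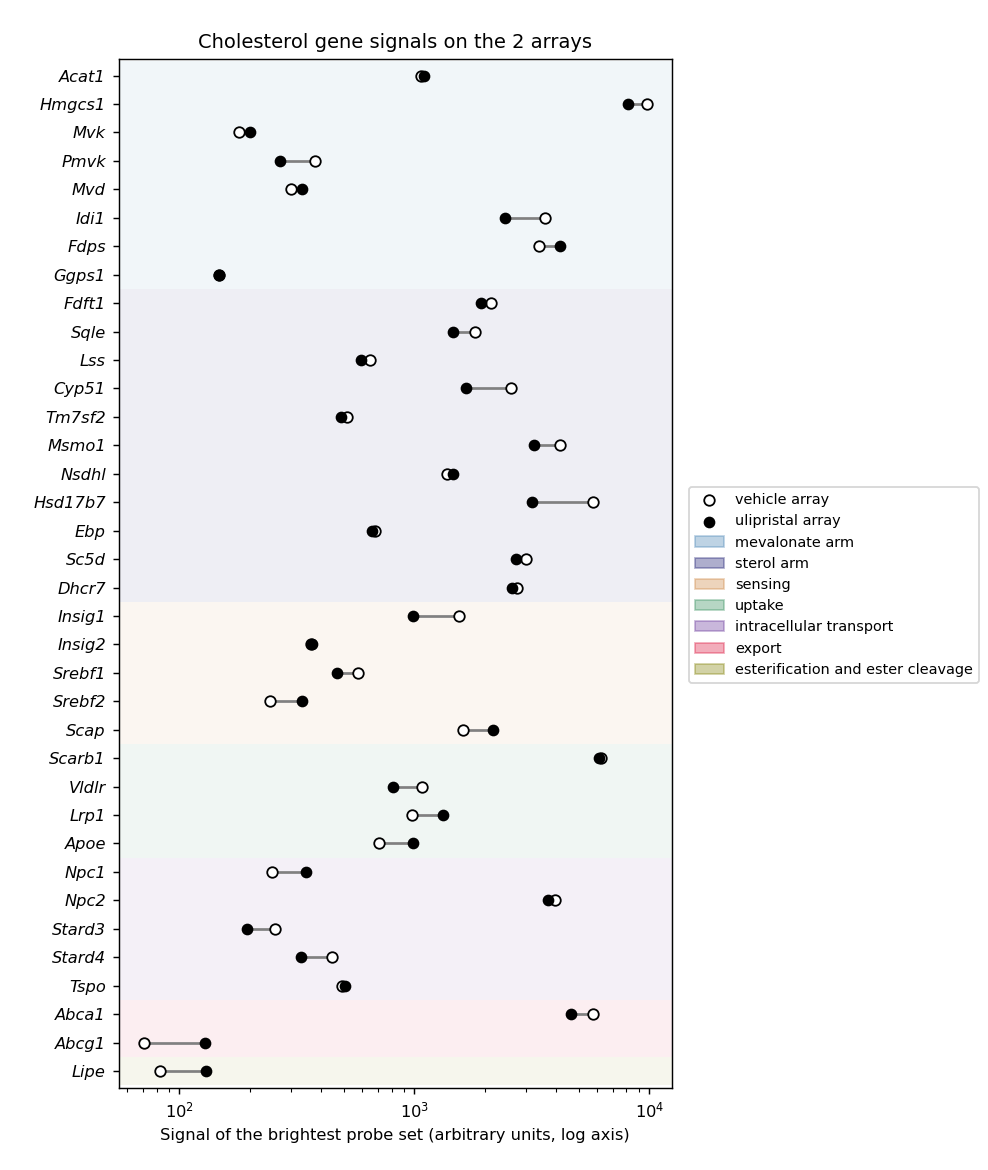
Signal of each member's brightest probe set on the vehicle array (open) and the ulipristal array (filled), in arbitrary units on a log axis, with shading by step of the pathway. The widest gaps are those of Abcg1 (70.6 and 128) and Hsd17b7 (5753 and 3182), in opposite directions.

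The mevalonate arm turns acetyl-CoA into isoprenoid units, and its enzymes differed in direction from each other. Of 8 measured enzymes, with the mitochondrial Acat1 and the side-branch enzyme Ggps1 counted, 3 were below 0 and 5 above. Their median log2 ratio was 0.03, and 0 were past 1.5-fold. Idi1, which isomerises isopentenyl diphosphate, had the lowest ratio of the arm, reading 3596 with vehicle and 2426 with ulipristal (1.48-fold lower). Its second probe set read 1115 and 790, so both were lower by a similar amount (log2 ratios of -0.57 and -0.50). Pmvk, the kinase that makes mevalonate diphosphate, read 379 and 268 on its only probe set, 1.42-fold lower. Both stopped short of 1.5-fold here, and Idi1 passed it under median centring (a log2 ratio of -0.63). Hmgcs1, the cytosolic synthase that feeds the pathway and whose promoter is shown above, read 9750 and 8093, a log2 ratio of -0.27. Its 5 probe sets ranged from -0.42 to 0.00, with 4 of them below 0.

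The other enzymes of this arm were at or above 0 on their brightest probe sets. Fdps, which joins isoprenoid units into farnesyl diphosphate, read 3395 with vehicle and 4153 with ulipristal, the highest ratio of the arm (1.22-fold higher). In the brightest decile of genes 8.80% had a ratio as high or higher. Its second probe set was below the floor of 7.17 on both arrays. Mvk, mevalonate kinase, read 180 and 201, and Mvd, the decarboxylase that follows Pmvk, read 299 and 334. Both probe sets of each of these genes were above 0, by at most 1.21-fold.

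Ggps1 branches off to geranylgeranyl diphosphate, used to anchor proteins in membranes. Its brightest probe set read 147 and 148, yet its 4 probe sets ran from -0.36 to 0.77 on the log2 scale. Acat1, a mitochondrial thiolase of acetoacetyl-CoA, read 1064 and 1102, with 3 probe sets from -0.27 to 0.05. For both genes the probe sets disagreed in sign.

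In the sterol arm, which builds squalene and closes and trims it into cholesterol, ratios lay mostly below 0. Of 11 measured enzymes, 10 were below 0 and 1 above, with a median log2 ratio of -0.14, and 8 of the 11 stood in the brightest decile of genes, whose own median was -0.12. Relative to their own deciles, 8 were below and 3 above. Because whole ovaries were profiled, fewer cells that carry a message and less message per cell cannot be told apart, here and for every gene that follows. The 8 granulosa markers had 6 above 0 and a median log2 ratio of 0.35, running from -0.69 to 1.44. The 5 theca markers with a probe set had 4 above 0 and a median of 0.42, running from -2.22 to 1.32. Among all measured genes 60.0% were above 0, with a median of 0.09. The part of granulosa and theca cells in the results was not tested.

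Hsd17b7 had the lowest ratio of all members. It encodes an enzyme that reduces a keto group in cholesterol synthesis and also converts estrone to estradiol. Its brightest probe set read 5753 with vehicle and 3182 with ulipristal, 1.81-fold lower. The next probe set read 2146 and 1016, 2.11-fold lower. Another read 1706 and 878, and the dimmest read 65.1 and 50.1. All 4 were lower, and the 3 brighter ones gave log2 ratios of -0.85, -1.08 and -0.96. In the brightest decile of genes 2.46% had a ratio as low or lower. Hsd17b7 was the only member at least 1.5-fold in its direction under all 10 processing alternatives.

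Cyp51 demethylates lanosterol, and its product is the meiosis-activating sterol of follicular fluid, which can restart meiosis in cultured oocytes. It read 2577 with vehicle and 1659 with ulipristal, 1.55-fold lower. Its second probe set read 826 and 492, 1.68-fold lower, and its dimmest 126 and 44.9, 2.79-fold lower. All 3 were lower, and the size grew as the signal fell (log2 ratios of -0.64, -0.75 and -1.48). The dimmest Cyp51 probe set and 1 of Hsd17b7 were the 2 of 77 member probe sets at least 2-fold lower. None was at least 2-fold higher, beside 2.02% lower and 3.20% higher among all 19467 measured single-gene probe sets.

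The remaining enzymes of the arm differed by less. Msmo1, which oxidises the methyl groups left on the sterol ring, read 4161 with vehicle and 3232 with ulipristal (1.29-fold lower), while a dim second probe set was 1.13-fold higher. Sqle, the epoxidase and a rate-limiting enzyme of the arm, read 1808 and 1455 (1.24-fold lower) on its only probe set. Neither gene reached 1.5-fold. For Lss, which closes the rings to lanosterol, the choice of probe set decided the size. The brightest read 649 and 595 (1.09-fold lower), whereas another of nearly the same mean signal read 692 and 431 (1.61-fold lower).

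Fdft1, squalene synthase, read 2128 and 1916 on its brightest probe set and 1034 and 1254 on the next, so its direction was not settled (log2 ratios of -0.15 and 0.28). The other Fdft1 probe sets were below the floor on both arrays. Sc5d, a sterol desaturase, read 2996 and 2714, with 3 probe sets from -0.37 to 0.20. Of the last enzymes, Dhcr7, the reductase that yields cholesterol, read 2735 and 2598. Ebp, a sterol isomerase, read 679 and 660, and Tm7sf2, a sterol reductase, read 516 and 489. Nsdhl, a sterol dehydrogenase and the single member of the arm above 0, read 1377 and 1458. These 4 genes had 1 probe set each and differed by at most 1.06-fold.

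**Figure D2:**
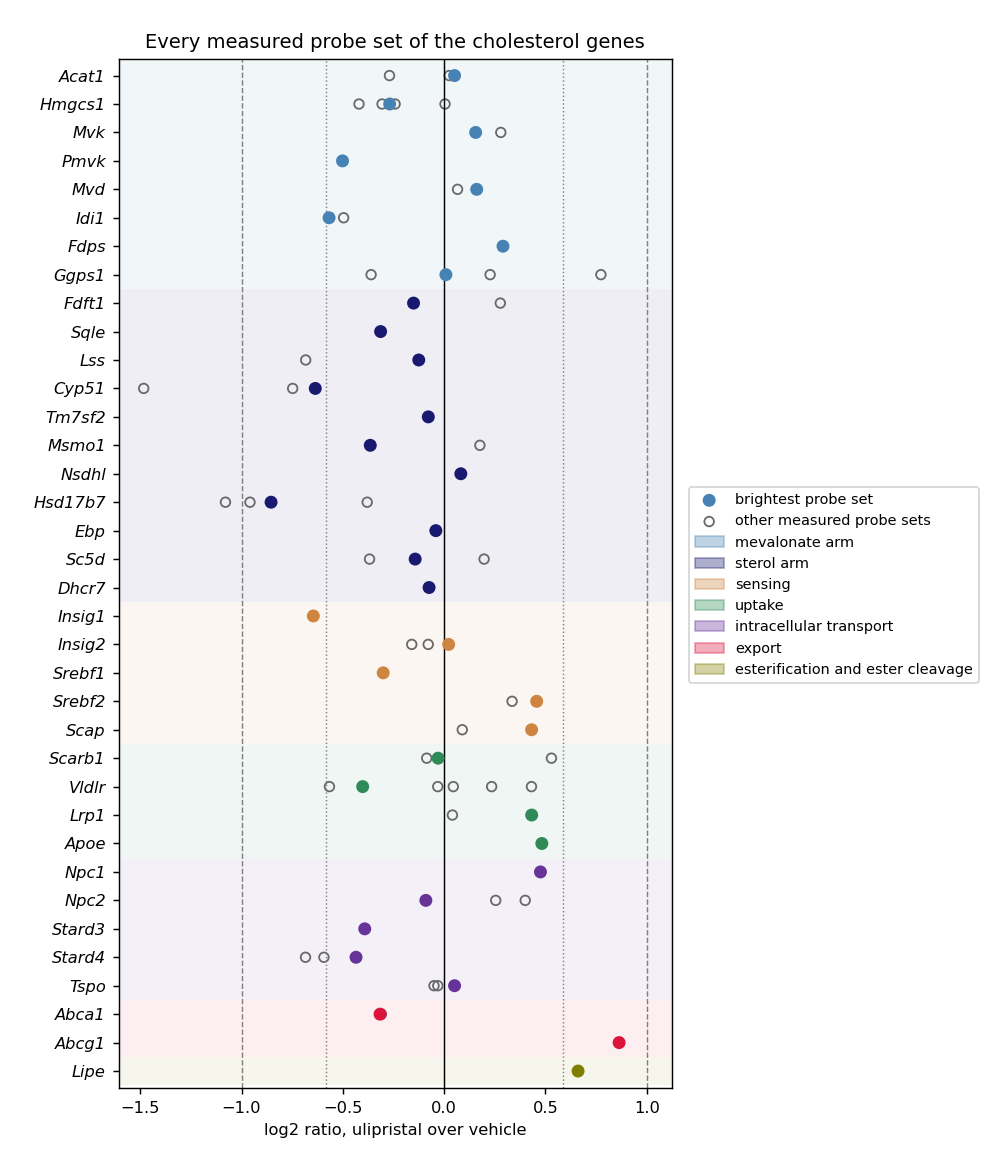
log2 ratio of ulipristal over vehicle for each of the 77 measured probe sets of the 36 members, with the brightest probe set of a gene filled and its others open. Dotted and dashed lines mark 1.5-fold and 2-fold. All probe sets of Hsd17b7, Cyp51, Idi1 and Stard4 lie below 0, whereas those of Vldlr, Ggps1 and Npc2 lie on both sides.

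The probe sets of a gene are the only repeated readings of a message in these data. Among the 22 members with at least 2 measured probe sets, 11 had all of them on 1 side of 0 and 11 had both signs, beside 48.5% with both signs among the 4955 such genes on the array. The SD of log2 ratios between probe sets had a median of 0.25 over the members and 0.26 over all such genes. The ratios of 15 of the 36 members were smaller than 0.26 in size. In 8 of the 22 members (36.4%) the brightest probe set exceeded it and every other measured probe set lay on the same side, beside 28.1% of the 4955 genes. These were Hsd17b7, Cyp51, Idi1, Stard4 and Abca1 below 0, and Srebf2, Scap and Lrp1 above. This scatter is technical and holds no difference between animals.

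In the sterol-sensing machinery, Insig1 was lower, while Scap and Srebf2 lay above 0. Insig1, the retention protein that SREBPs themselves induce, read 1551 with vehicle and 992 with ulipristal, 1.56-fold lower on its only probe set. In its decile of signal 4.40% of genes were as low or lower. Insig2, the related retention protein, read 363 and 368, and its 3 probe sets lay between -0.16 and 0.02. The gap between the Insig genes was not tested, since there is 1 array per treatment. Scap, the escort, read 1609 and 2171 (1.35-fold higher), although a dim second probe set read 43.3 and 46.1.

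The SREBP genes themselves differed in sign. Srebf2, whose protein mainly drives cholesterol genes, read 242 and 333 (1.37-fold higher), and its second probe set was 1.26-fold higher. Srebf1, whose protein mainly drives fatty acid genes, read 578 and 469 (1.23-fold lower) on its only probe set. Message levels do not report how much SREBP is cleaved.

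Among uptake genes, no member reached 1.5-fold, and 2 were above 0 and 2 below. Scarb1 is the receptor through which ovarian cells of rodents take cholesteryl ester from high-density lipoprotein. Its brightest probe set read 6216 with vehicle and 6089 with ulipristal, and the next read 5105 and 4810. The third read 3795 and 5480, 1.44-fold higher, so the Scarb1 probe sets did not agree (log2 ratios of -0.03, -0.09 and 0.53). Both x-type probe sets, which can bind several transcripts, were the ones near 0. The brightest probe sets of Hsd17b7, Fdft1 and Vldlr are x-type too. Without s and x probe sets their log2 ratios were -1.08, 0.28 and 0.05. Vldlr, a receptor for triglyceride-rich lipoproteins, read 1076 and 814 (1.32-fold lower) on its brightest probe set, and its 6 probe sets ran from -0.57 to 0.43, with 3 below 0 and 3 above.

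Lrp1, a large endocytic receptor, read 981 and 1323 (1.35-fold higher), while its second probe set read 123 and 126. Apoe, the ligand that carries remnant particles to these receptors, read 710 and 992 (1.40-fold higher). In the deciles of signal that hold Lrp1 and Apoe, 4.31% and 5.46% of genes were as high or higher. Both genes are also expressed by macrophages. All 10 macrophage markers with a probe set were measured, and they summed to 1982 with vehicle and 2344 with ulipristal. Of these, 9 of 10 were above 0, with a median log2 ratio of 0.18. Among all measured genes 60.0% were above 0, with a median of 0.09. The part of macrophages in the Lrp1 and Apoe values was not tested.

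Of the genes that move cholesterol inside the cell, Stard4 and Stard3 lay below 0 and Npc1 above. Stard4, a soluble sterol carrier that SREBPs induce, read 447 with vehicle and 331 with ulipristal on its brightest probe set. Its second read 236 and 156, and its dimmest 99.5 and 61.95. All 3 were lower, by 1.35-fold, 1.51-fold and 1.61-fold, and 5.01% of genes in the same decile were as low or lower. Stard3, a late endosomal sterol-binding protein, read 255 and 194 (1.31-fold lower). Npc1, the membrane protein that hands sterol out of lysosomes, read 248 and 345 (1.39-fold higher). Each of Stard3 and Npc1 rested on 1 probe set.

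Npc2, the soluble partner of Npc1, read 3954 and 3714 on its brightest probe set, but its other 2 measured probe sets were 1.19-fold and 1.32-fold higher. Tspo, an outer mitochondrial membrane protein linked to cholesterol import, read 491 and 509. Its 3 probe sets lay between -0.05 and 0.05. Star, which carries cholesterol into the mitochondrion and is no member, had probe sets from -0.19 to 0.19.

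The export genes differed in direction. Abcg1, a transporter that passes cholesterol to high-density lipoprotein and an LXR target, had the highest ratio of all members, with signals of 70.6 and 128 (1.82-fold higher). A second, dimmer probe set, not counted as measured, read 11.7 and 16.6. With 50 added to every signal the Abcg1 log2 ratio was 0.57, below 1.5-fold, and 8.36% of genes in its decile were as high or higher. Abca1, which loads cholesterol onto lipid-poor apolipoproteins and carries the LXR letters shown above, read 5766 and 4631 (1.24-fold lower). Its second measured probe set read 75.1 and 60.6, with nearly the same ratio (-0.32 and -0.31). The third, below the measured level, read 29.0 and 29.4.

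Lipe, hormone-sensitive lipase, frees cholesterol from stored esters and is abundant in fat cells. It read 82.5 with vehicle and 130 with ulipristal, 1.58-fold higher, and its other probe set was below the floor on both arrays. In its decile of signal 14.96% of genes were as high or higher. Of 8 adipocyte markers listed, 6 had a probe set and summed to 2692 with vehicle and 3526 with ulipristal. Of the 5 measured, 4 were above 0 with a median log2 ratio of 0.90, beside 60.0% and 0.09 among all measured genes. Adipoq, the hormone adiponectin, was 1.89-fold higher and Lep, the hormone leptin, was below the floor on both arrays. Their part in the Lipe value was not tested.

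**Figure D3:**
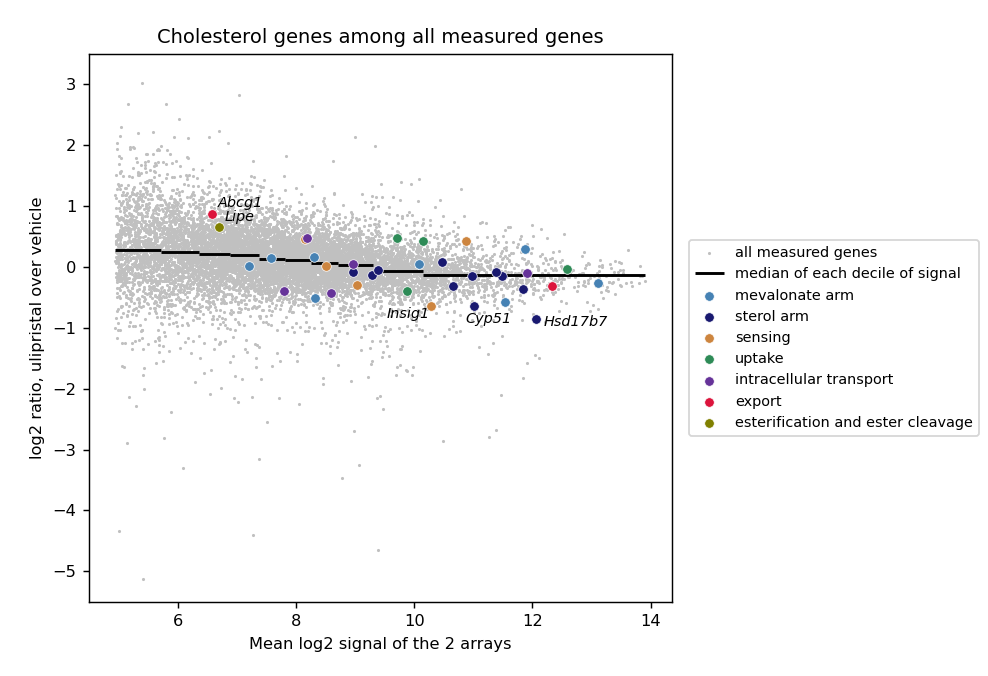
log2 ratio of ulipristal over vehicle against the mean log2 signal of both arrays, for the 11364 measured genes (grey) and the 36 members (coloured by step). Black bars mark the median of each decile of signal, which runs from 0.28 in the dimmest to -0.12 in the brightest. Hsd17b7, Cyp51 and Insig1 lie below the bars, and Abcg1 and Lipe above.

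Of 93 further genes listed for the same pathway and its SREBP-linked fatty acid branch, 73 were measured. Their median log2 ratio was 0.19, and 4 of them passed 2-fold, 2 downwards and 2 upwards, beside 1.56% and 3.34% of all measured genes. At 1.5-fold, 3 were lower and 10 higher, beside 4.58% and 12.3%. Apoa1, the main protein of high-density lipoprotein and an acceptor for exported cholesterol, read 333 with vehicle and 125 with ulipristal, 2.67-fold lower. All 4 of its probe sets were lower, from -1.89 to -1.42. No hepatocyte marker with a probe set (Alb, Apoa2 and Ttr) reached the measured level on these arrays. Ch25h, which makes an oxysterol that restrains SREBP cleavage, read 121 and 55.3, 2.19-fold lower on 1 probe set.

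The higher genes were Abca2, a lysosomal transporter of lipids (35.6 and 77.6, 2.18-fold), and Mid1ip1, an activator of acetyl-CoA carboxylase (734 and 1557, 2.12-fold), each on 1 probe set. The 14 fatty acid targets of SREBP, all measured, had 11 above 0 and 3 below, with a median of 0.31. Some of them had measured probe sets of both signs, in the widest case from -1.86 to 1.13. The 19 synthesis enzymes, those of the mevalonate and sterol arms, had 6 above and 13 below, with a median of -0.13. Of these enzymes 11 stood in the brightest decile of genes, whose own median was -0.12. Against their own deciles 12 were below and 7 above. The 8 measured genes of the uptake list all lay above 0, with a median of 0.36. Among all measured genes 60.0% lay above 0, and decile medians ran up to 0.28 in dim genes. The 9 measured genes of the export list ran from -1.42 to 1.12. These lists are read from the same pair of arrays, and the differences between them were not tested.

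**Figure D4:**
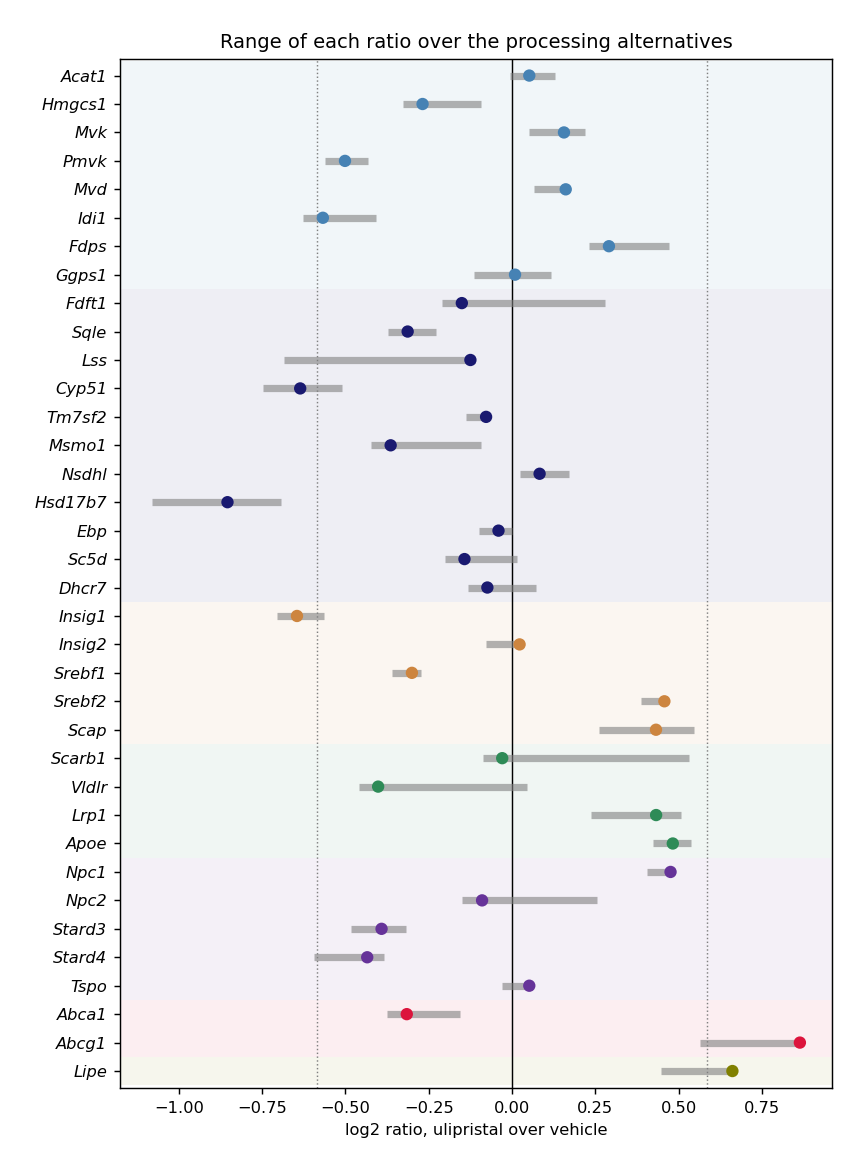
log2 ratio of each member's brightest probe set (point) with the range of that ratio over the processing alternatives (bar), shaded by step. Dotted lines mark 1.5-fold. The bar of Hsd17b7 runs from -1.08 to -0.69 and lies wholly past 1.5-fold, whereas those of Cyp51, Insig1, Abcg1, Lipe, Idi1, Lss and Stard4 cross it.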

How the data were processed

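Total RNA from whole ovaries, 100 ng per sample, was labelled with biotin and hybridised to Affymetrix mouse arrays, as the labels' protocols state. Each deposited value is the intensity of a probe set, not log-transformed. Per the submitters' processing notes MAS5 and Affymetrix Expression Console version 1 were used, with no roles given. With the top and bottom 2% left out, both arrays average 150.001, so they appear scaled to a common mean, which would hide a shift of most genes. The number of arrays, 1 per treatment label, limits the precision.

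Of 45101 probe sets, 34945 named 1 gene, 932 several and 9160 none, and 64 were controls. Gene identifiers were matched to RefSeq (GRCm38.p6) for 34741 of them, all with the same symbol. A floor of 7.17, the 25th percentile without controls, was applied before log2 was taken. The filter on mean log2 signal was the 50th percentile. The calls were 2-fold and 1.5-fold. No test was run. The steps were tested on simulated data without the drift by signal seen on these arrays, which checks the calculation only. The members and gene lists were chosen with earlier results of these data known. Named were all members with a probe set, and further pathway genes past 2-fold. Star was named outside this rule, after its values were seen. Software was numpy 2.4.6 and pandas 2.3.3 under Python 3.11.15, with statsmodels 0.14.6 for lowess and matplotlib 3.10.9 for plots. The alternatives were other scalings, floors and filters, a pseudocount of 50, and other probe set choices.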

Additional observations from a re-analysis of the deposited data

How the results depend on the processing

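No paired analysis was possible because each treatment has 1 array. The 10 alternatives changed the scaling (lowess or median centring, or quantile normalization), the floor (none, or the 50th percentile), the filter (none, or the 75th percentile), the pseudocount (50 added to every signal) or the probe sets (their median, or none of type s and x). The count of members at least 2-fold lower was 0 except without s and x probe sets, where it was 1, Hsd17b7, and the count at least 2-fold higher was 0 throughout. With 1.5-fold in place of 2-fold these counts were 3 lower and 2 higher. The count at least 1.5-fold higher was 1 after quantile normalization, 1 after lowess centring, 0 with the filter at the 75th percentile, which removed Abcg1 and Lipe, and 0 with 50 added to every signal. The count at least 1.5-fold lower was 1 after lowess centring and 1 after quantile normalization, both Hsd17b7. It was 4 under median centring, which added Idi1, 4 with the median over probe sets, which added Stard4, and 4 without s and x probe sets, which added Lss. The causes of the changes under quantile normalization, lowess centring and the added 50 were not tested. Cyp51 and Insig1 reached 1.5-fold under 8 of 10 alternatives each, Abcg1 under 8 of 9 and Lipe under 6 of 9. All 5 members past 1.5-fold kept their sign under every alternative that gave a value. Of the 36 members 25 did, and 11 did not. The median of the synthesis enzymes ranged from -0.18 to -0.08 over the 10. That of all members ranged from -0.14 under median centring to -0.0037 under quantile normalization, next to 0. Of 357 member ratios under alternatives, 9 moved by more than 0.26 on the log2 scale, the typical SD between probe sets of 1 gene. Precision is limited by the single array per treatment, and for Abcg1 and Lipe also by low signal.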
